A study of Mus musculus with 144 samples.

Results

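The 9 genes described here encode the enzymes of the hepatic urea cycle and of glutamine handling in mouse liver. They are Nags, Cps1, Otc, Ass1, Asl, Arg1 and Arg2 of the cycle and its end step, Glul for glutamine synthesis and Gls2 for glutamine breakdown. They were chosen by name and not by their values, and all 9 were present among the 55359 genes counted in each library. The series holds RNA-Seq libraries of primary hepatocytes, liver cells isolated from 28-day-old male mice and plated on collagen. The cells came from C57BL/6NCrl mice, labelled WT, or from mice labelled PkmΔDRE, in which a dioxin response element (DRE, the DNA motif bound by the aryl hydrocarbon receptor) in an intron of Pkm was removed by genome editing. After 3 h of attachment the cells of both labels received medium with 100 nM dexamethasone, a synthetic glucocorticoid, and either DMSO vehicle or 10 nM TCDD, the dioxin that activates the receptor. They were harvested at 9 time points between 2 and 120 h, with 4 libraries in each of the 36 groups and no label that ties libraries to animals, so p-values measure the spread between libraries, which may be technical. Attached cells in dexamethasone are thus the background of every group, vehicle included, and the time in culture runs alongside the exposure.

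The urea cycle turns ammonia into urea, and in the body nearly all of it runs in the hepatocytes around the portal vein. N-acetylglutamate, made by Nags, switches on Cps1, which joins ammonia and bicarbonate in the mitochondrion, and Otc passes the product to ornithine. Ass1 and Asl then build and split argininosuccinate in the cytosol, and Arg1 releases urea and returns ornithine. Arg2 is the mitochondrial arginase, found mainly outside the liver. Ammonia that escapes is caught by Glul in the hepatocytes next to the central vein, while Gls2, the liver glutaminase, releases ammonia for the cycle on the portal side. Transcription of several of these genes depends on glucocorticoid, glucagon and the C/EBP and HNF4A factors, and it is known to fall when hepatocytes lose their differentiated state in culture.

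Depth, as counts on genes, lay between 13588848 and 30719161 in every library (median 18011825). Levels are given in CPM, read counts divided by library size after TMM scaling, a correction for the make-up of each library. Replicate numbers only name libraries in accession order. Pkm, the edited gene, went against the genotype labels. At 8 h it lay between 109.2 and 169 CPM with TCDD and between 37.8 and 81.5 with vehicle in libraries labelled PkmΔDRE, but between 29.3 and 62.6 against 41.8 and 80.8 in those labelled WT. At 48 h it lay between 755 and 1079 CPM with TCDD and between 225 and 568 with vehicle in libraries labelled PkmΔDRE. In those labelled WT it lay between 302 and 747 against 151 and 1193 at 48 h. The highest of these under each treatment was replicate 3. The other WT libraries ran from 302 to 385 CPM with TCDD and from 151 to 247 with vehicle, without overlap. Labels are therefore used here only as names of libraries. By their expression of all genes, most libraries were most like their own hour, 37 were 1 time step away, 2 were 2 steps away and 1 was 3 steps away. Replicate 4 of the PkmΔDRE vehicle group at 4 h was most like 72 h, and replicate 4 of the PkmΔDRE vehicle group at 96 h was most like 4 h. Cyp1a1, the standard readout of the receptor, was at 3285 CPM in replicate 1 of WT vehicle at 48 h, at 1717 in replicate 3 of WT vehicle at 96 h, at 29.2 in replicate 4 of WT TCDD at 72 h and at 1.15 in replicate 4 of WT TCDD at 2 h. In 3 further libraries at 2 and 4 h and in 1 at 96 h Cyp1a1 was also nearer to the other treatment. The first 6 libraries are kept in the tests and called the libraries set apart, and results that rest on them are also given without them.

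Promoter sequence was at hand for Otc, Ass1, Nags and Glul, from 250 bases before to 50 after the start site in the RefSeq annotation of GRCm38.p6. It was searched on both strands for GCGTG, the core of the DRE, and for TTNNGNAA, a simplified consensus of the C/EBP factors. The Ass1 window held the DRE core at 2 positions and the Otc window held the C/EBP consensus at 2 positions, counted from the start site. These stretches are shown because they carry the matches in a gene of the cytosolic and in a gene of the mitochondrial part of the cycle. Capitals mark the matches, and CACGC is the DRE core read from the other strand.
Ass1, chr2:31470066-31470159, plus strand, positions -204 to -111: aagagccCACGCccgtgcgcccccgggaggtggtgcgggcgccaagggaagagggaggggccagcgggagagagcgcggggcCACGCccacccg
Otc, chrX:10252155-10252223, plus strand, positions -150 to -82: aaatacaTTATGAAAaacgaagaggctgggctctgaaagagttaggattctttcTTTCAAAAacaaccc
The DRE cores of Ass1 lay at -197 and -122, and the matches of Otc at -143 and -96. The Nags window held 1 C/EBP match at -231 and no DRE core, and the Glul window held neither. Of 32851 promoters of this length 32.4% held the DRE core and 40.7% the C/EBP consensus, so neither is rare. A match of letters is not a binding site, and binding was not measured in these libraries.

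Soon after plating the cells expressed the whole cycle, with the levels of its enzymes far apart. Per kb of exon, so that genes can be compared, Ass1 stood at 2992 ± 615 CPM per kb (SD, n = 4) in WT vehicle libraries at 2 h. Cps1 followed at 1080 ± 238 and Arg1 at 683 ± 78.6. Glul at 286 ± 32.4, Asl at 204 ± 27.8 and Gls2 at 203 ± 40.5 formed a middle group in which Asl and Gls2 did not differ beyond their spread. Otc stood at 91.8 ± 25.1 and Nags, whose product is a regulator and not a substrate, at 20.6 ± 1.34. Arg2 was nearly silent at 0.300 ± 0.208 CPM per kb and never passed 1.52 CPM in any library, and 15 libraries held no count of it. Arg1 far above Arg2 is the usual pattern of liver.

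By 120 h in vehicle the order had changed. Ass1 at 46.4 ± 12.9, Glul at 45.2 ± 6.92 and Cps1 at 34.6 ± 26.02 CPM per kb overlapped within their spread in WT libraries. Arg1 had dropped to 8.01 ± 7.09, below Asl at 18.2 ± 2.42. Gls2 and Otc, at 0.671 ± 0.324 and 0.593 ± 0.413, had passed below Nags at 3.10 ± 1.10. With TCDD for 120 h Arg1 came first of all 9 genes, at 47.1 ± 14.96 CPM per kb in WT and 40.9 ± 19.4 in PkmΔDRE libraries, though its spread overlapped that of Ass1 (27.9 ± 9.18 and 31.4 ± 5.82).

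**Figure D1:**
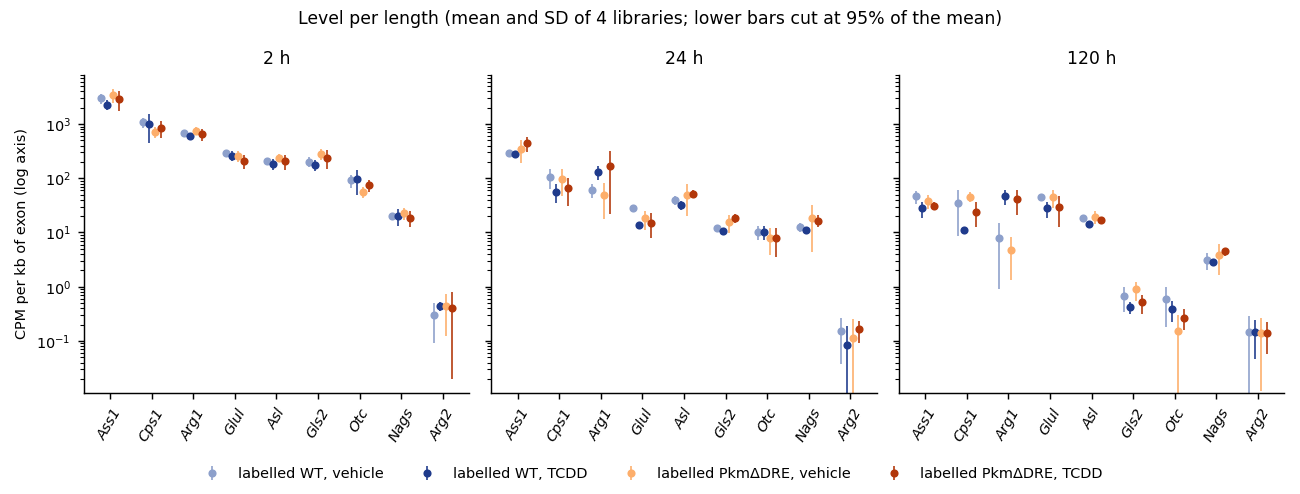
Level of each gene per kb of exon at 2, 24 and 120 h on a log axis, with points for the mean and bars for the SD of 4 libraries in each of the 4 combinations of label and treatment. Ass1 leads and Arg2 is last at 2 h in all 4, and at 120 h Arg1 with TCDD stands with the highest genes while Arg1 with vehicle lies between Asl and Nags.

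For 8 of the 9 genes the change over time in culture was larger than any called change of the same gene with TCDD. Together the 9 genes took 1.17% ± 0.159 (SD, n = 4) of all counts on genes in WT vehicle libraries at 2 h and 0.190% ± 0.0226 at 24 h. Their share was 0.0532% ± 0.00746 at 72 h, 0.0793% ± 0.0275 at 96 h and 0.0782% ± 0.0284 at 120 h. From 2 to 120 h, 8 of the 9 genes fell in each of the 4 combinations of label and treatment by edgeR's quasi-likelihood test, at an adjusted p under 0.05 (Benjamini-Hochberg over all genes tested) and a fold of at least 1.5. Among all genes tested 24.5% fell in WT vehicle, 25.2% in WT TCDD, 22.7% in PkmΔDRE vehicle and 23.9% in PkmΔDRE TCDD libraries. The median log2 fold change of the 9 genes in WT vehicle libraries was -5.13, against 0.21 over all genes tested. Arg2 was the exception, with a log2 fold change of -1.21 ± 0.86 (SE) and an adjusted p of 0.221 at counts too low to tell. In bulk RNA, fewer cells of a type and less RNA per cell cannot be told apart. The summed level of hepatocyte markers, of which 6 of 7 were measured, fell alongside, from 125052 to 166292 CPM at 2 h to 3511 to 18717 CPM at 120 h in WT vehicle libraries, and none of the 6 was under 1 CPM. Sums of periportal markers fell from 4251 to 5400 CPM to 7.55 to 39.997 CPM and of pericentral markers from 4636 to 7022 CPM to 139.1 to 193 CPM, lists that hold Gls2 and Glul themselves. At 120 h Glul alone was at 131.7 to 183 CPM in these libraries and made up most of the pericentral sum. Endothelial markers fell from 273 to 457 CPM to 35.5 to 89.1 CPM, while stellate or fibroblast markers rose from 5.71 to 12.0 CPM to 23.3 to 170 CPM and biliary markers from 34.2 to 132.5 CPM to 140 to 193 CPM. Their part in the fall of the 8 genes was not tested. Without TMM scaling, on total counts alone, the median of all genes moved from 0.21 to 1.43 on the log2 scale in this contrast, and the 8 genes still fell, for example Nags by 1.68 and Glul by 1.61.

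Nags, the source of the activator, fell late in vehicle. Its 4 WT vehicle libraries held 55.1, 55.1, 61.5 and 61.9 CPM at 2 h and still 45.6, 47.2, 49.4 and 50.7 at 8 h. By 120 h they held 5.11, 7.76, 9.90 and 12.4 CPM. The 120 h libraries lay below all earlier ones shown, and the log2 fold change from 2 to 120 h was -2.89 ± 0.26 (SE) with an adjusted p of 3.74e-11 by edgeR's test. Most of that came after the first day, since Nags changed by -0.27 ± 0.24 from 2 to 8 h and by -0.57 ± 0.24 from 8 to 24 h, neither of them called, and by -2.06 ± 0.25 from 24 to 120 h. In PkmΔDRE vehicle libraries the same steps gave -0.64 ± 0.48, 0.14 ± 0.48 and -2.24 ± 0.50, with only the last called. In WT TCDD libraries Nags fell early instead, from 36.03, 53.7, 55.7 and 85.998 CPM at 2 h to 21.6, 31.5, 32.6 and 32.8 at 8 h. That was a log2 fold change of -0.97 ± 0.26 with an adjusted p of 0.00461 by edgeR's test, where 15.4% of all genes fell. The step from 8 to 24 h was 0.02 ± 0.26. The 2 h library at 85.998 CPM was replicate 4, set apart above, and these fold changes include it. Without it the 2 h libraries ran from 36.03 to 55.7 CPM, still above those at 8 h. Pairs on no gene made up 3.10% to 6.03% of pairs in the WT TCDD libraries at 2 h and 7.21% to 15.6% at 8 h. The call of Nags against vehicle at 8 h was lost once GC trends were removed, as given below. The step from 2 to 8 h was not refitted in this way, and the part of these shares in it was not tested. In PkmΔDRE TCDD libraries the log2 ratio of the group means from 2 to 8 h was -0.27.

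Cps1 and Otc fell far, and in WT vehicle libraries early. Cps1, the most abundant mitochondrial protein of hepatocytes, went from 4849, 4864, 7092 and 7201 CPM at 2 h to 401, 488, 519 and 922 at 24 h and 46.8, 91.7, 115.3 and 164 at 48 h in WT vehicle libraries. It was then at 67.9, 130, 171 and 399 CPM at 120 h, so the last groups overlapped. From 2 to 120 h it fell by 5.13 on the log2 scale in WT vehicle (SE 0.51) and by 4.16 in PkmΔDRE vehicle libraries (SE 0.72). Under the PkmΔDRE label the early part was not seen, since vehicle libraries held 2959, 3542, 4589 and 4850 CPM of Cps1 at 2 h and 1290, 2932, 3424 and 4988 at 8 h. These overlapped at -0.36 ± 0.63 (SE) with an adjusted p of 0.778, and the step from 8 to 24 h was -2.67 ± 0.67 with an adjusted p of 0.0265 by edgeR's test. Otc, the next step, did not level off. It held 332, 337, 339 and 549 CPM at 2 h, 30.7, 36.6, 45.01 and 58.9 at 24 h and 1.03, 1.04, 3.53 and 4.46 at 120 h in WT vehicle libraries. Its log2 fold change of -7.43 ± 0.45 lay below that of Cps1 in the same libraries, a difference that was not tested. In PkmΔDRE vehicle libraries Otc ended at 0.145, 0.361, 0.481 and 1.55 CPM, which rests on few reads, since the lowest count of Otc in any library was 3.

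The cytosolic enzymes split by depth of the fall. Ass1, the most abundant transcript of the set per length, went from 5021, 7674, 7986 and 8212 CPM at 2 h to 673, 705, 747 and 760 at 24 h and 76.4, 100.96, 121.1 and 150 at 120 h in WT vehicle libraries. That was a log2 fold change of -6.18 ± 0.36 (SE) with an adjusted p of 1.05e-15 by edgeR's test. Asl, its partner, fell from 808, 958, 1061 and 1113 CPM to 76.3, 80.5, 92.8 and 101.9 CPM, a log2 fold change of -3.66 ± 0.25, whose difference from that of Ass1 was not tested. Arg1 fell by 6.58 (SE 0.87) in WT and by 7.51 (SE 1.07) in PkmΔDRE vehicle libraries, whereas in the TCDD libraries its log2 fold changes were -3.79 ± 0.46 (SE) and -4.14 ± 0.38. In vehicle it went from 1295, 1485, 1614 and 1697 CPM at 2 h to 2.92, 8.10, 22.2 and 38.1 at 120 h in WT libraries, and the TCDD libraries are given below.

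The glutamine enzymes, which mark opposite ends of the liver lobule, parted. Gls2 had the deepest fall of the set in WT libraries under both treatments, with log2 fold changes of -8.42 ± 0.61 (SE) in vehicle and -8.83 ± 0.50 in TCDD. Its WT vehicle libraries went from 527, 661, 802 and 834 CPM at 2 h to 35.1, 43.3, 45.6 and 46.9 at 24 h and 1.34, 1.99, 2.04 and 3.95 at 120 h. Replicate 3 of the WT group stood above the others at 72 h under both treatments, at 42.1 CPM with vehicle and 28.0 with TCDD. Glul fell within the first day and then turned. Its WT vehicle libraries held 857, 879, 978 and 1092 CPM at 2 h, 169, 193, 239 and 271 at 8 h and 79.4, 95.7, 95.9 and 97.4 at 24 h. By 120 h they held 131.7, 136.3, 150 and 183 CPM, all above the 24 h libraries. From 24 to 120 h Glul rose in all 4 combinations, by log2 fold changes of 0.66 ± 0.22 (SE) in WT vehicle, 0.98 ± 0.30 in WT TCDD, 1.21 ± 0.43 in PkmΔDRE vehicle and 0.88 ± 0.32 in PkmΔDRE TCDD. By edgeR's test the adjusted p-values were 0.0179, 0.00995, 0.0404 and 0.0191. Of all genes tested 17%, 15.7%, 9.38% and 27.3% rose in these contrasts, so the rise of Glul was not rare among genes, but it was the only member called higher in any of them.

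Taken by step in WT vehicle libraries, 7 of 9 genes fell from 2 to 8 h (all but Nags and Arg2), where 16% of all genes fell. From 8 to 24 h 6 fell (Cps1, Otc, Ass1, Asl, Glul and Gls2), where 12.3% did, and from 24 to 120 h 7 fell and Glul rose, where 18.6% fell. In PkmΔDRE vehicle libraries 1 fell from 2 to 8 h (Glul), 2 from 8 to 24 h (Cps1 and Glul) and 5 from 24 to 120 h (Otc, Ass1, Arg1, Nags and Gls2), where 5.50%, 2.03% and 14% of all genes fell. The 36 libraries of that fit hold 2 of the libraries set apart, at 4 and 96 h. Without them 5, 7 and 7 members fell in the 3 steps, where 8.85%, 7.92% and 15.5% of all genes did, while Cps1, Otc, Nags and Arg2 were still not called from 2 to 8 h. An interaction term tested whether the fall from 2 to 120 h in vehicle differed by label. In edgeR's test 0 of the 9 genes passed, with 0 at an unadjusted p under 0.05 and 0 by DESeq2. Of all 15109 genes tested 0 were called either. The interval of that difference was wide, for Cps1 a log2 difference of 1.03 ± 0.53 (SE) with an adjusted p of 0.969.

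**Figure D2:**
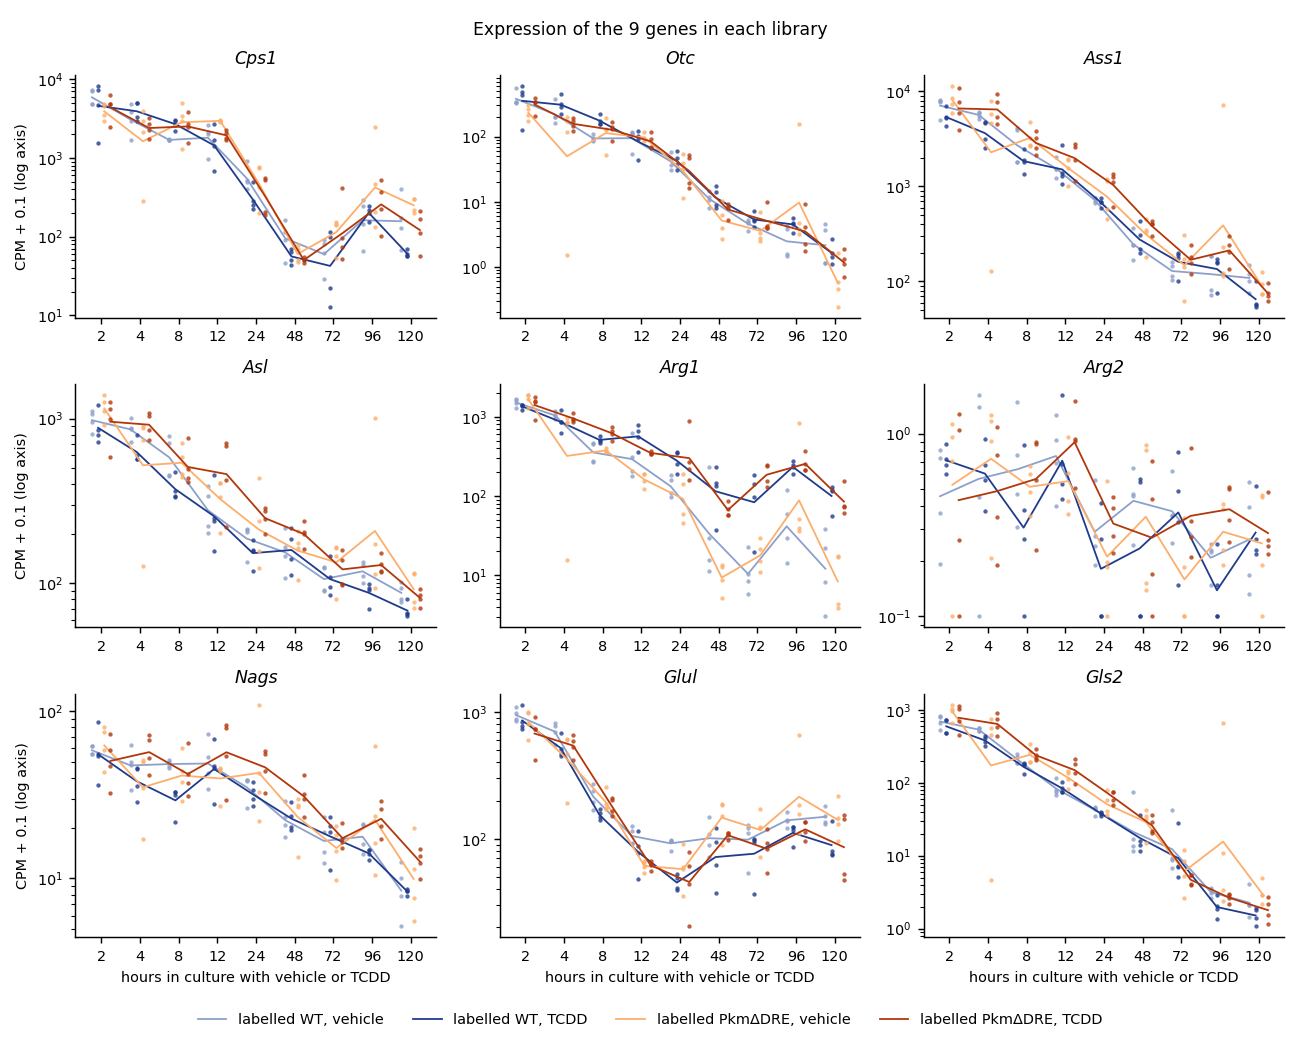
CPM plus 0.1 of each of the 9 genes in every library against the hour on an evenly spaced axis, with a log scale for the level, points for libraries and lines for the mean of log values in each combination of label and treatment. All genes but Arg2 fall over the 120 h, Glul turns after 24 h, the Arg1 line of TCDD lies above that of vehicle from 8 h on under both labels, and single PkmΔDRE vehicle points at 4 and 96 h lie far from their groups.

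Most of the rest of the pathway fell too. Of 28 further genes in lists of carriers, nitrogen donors, outlets and regulators, 20 fell and 1 rose from 2 to 120 h in vehicle under both labels. Of all genes 24.5% fell and 33.4% rose in WT, and 22.7% fell and 26.8% rose in PkmΔDRE libraries. The 5 tested genes that were called under neither label were Slc25a12, Glud1, Gpt2, Slc38a2 and Gatm, and Slc25a2 and Rhbg were too low to test. Among mitochondrial carriers 3 of 5 fell, led by Slc25a15, the ornithine carrier of the cycle, with log2 fold changes of -4.44 in WT and -4.49 in PkmΔDRE libraries, followed by the glutamate carrier Slc25a22 (-2.43 and -3.22) and the aspartate-glutamate carrier Slc25a13 (-1.90 and -1.49). Among nitrogen donors and bicarbonate supply 4 of 6 fell. Car5a, the mitochondrial carbonic anhydrase that feeds bicarbonate to Cps1, fell by 8.26 in WT and by 12.0 in PkmΔDRE libraries. The transaminases Gpt (-3.51 and -4.63), Got1 (-3.65 and -3.89) and Got2 (-1.90 and -2.20) fell too.

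Of 7 plasma membrane carriers 5 fell. They were Slc38a3 (log2 fold changes of -4.53 in WT and -4.92 in PkmΔDRE libraries) and Slc38a4 (-1.89 and -1.95) for neutral amino acids, Slc1a2 (-4.65 and -4.35) for glutamate, and Slc7a1 (-1.72 and -1.43) and Slc7a2 (-1.51 and -1.34) for cationic amino acids. Of 4 outlets of ornithine and arginine 3 fell, Oat by 5.92 and 5.76, Agmat by 4.74 and 5.27 and Odc1 by 1.65 and 2.01. Of 6 regulators 5 fell. Gcgr, the glucagon receptor, changed by -3.57 and -4.82, Cebpa by -2.33 and -2.27, Hnf4a by -1.71 and -1.86, Cebpb by -1.55 and -1.42 and the mitochondrial deacylase Sirt5, which acts on Cps1, by -0.76 and -1.04. Nr3c1, the glucocorticoid receptor, rose by 1.53 and 1.47.

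**Figure D3:**
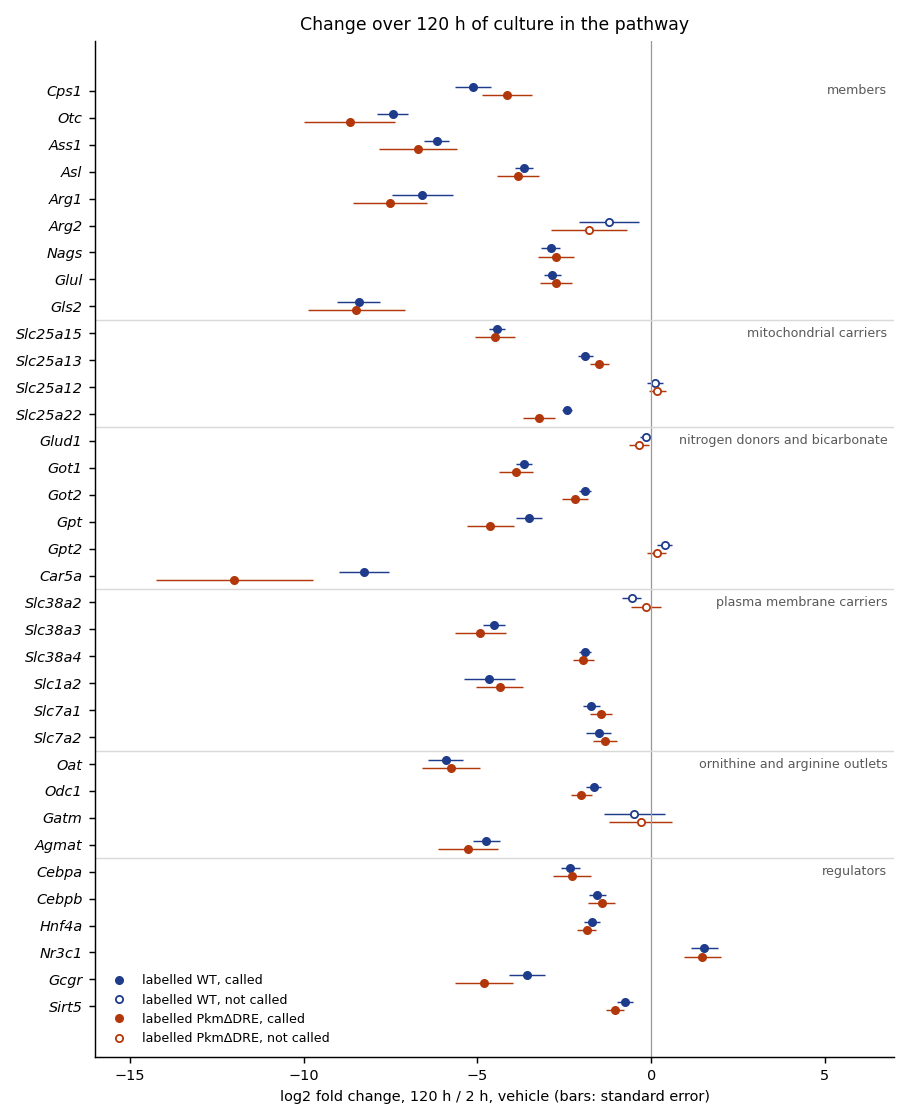
Log2 fold change from 2 to 120 h in vehicle for the tested genes of each list, with points for the fit of each label, bars for its standard error and filled points for called changes. Most points lie left of 0 under both labels, Gls2, Otc and Car5a farthest, and Nr3c1 lies to the right.

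Arg1, which releases urea, was the member that most often separated TCDD from vehicle. It was called higher with TCDD in 4 of 18 comparisons of 4 against 4 libraries, and the other genes gave 5 calls between them. Up to 4 h its libraries overlapped between treatments under both labels. At 8 h in PkmΔDRE libraries, vehicle gave 360, 367, 371 and 405 CPM and TCDD 498, 612, 652 and 737 CPM, without overlap, at a log2 fold change of 0.73 ± 0.17 (SE) and an adjusted p of 0.548 by edgeR's test. At 12 h in PkmΔDRE libraries, vehicle gave 122.99, 155, 187 and 188 CPM and TCDD 338, 341, 348 and 371 CPM. The groups did not overlap, yet the log2 fold change of 1.06 ± 0.17 (SE) had an adjusted p of 0.153 by edgeR's test. At 24 h in WT libraries, vehicle gave 97.5, 107.6, 158 and 184 CPM and TCDD 192, 249, 353 and 357 CPM, again without overlap, at 1.16 ± 0.25 and an adjusted p of 0.0951.

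From 48 h on the differences were larger. In PkmΔDRE libraries at 48 h, Arg1 was at 5.08, 8.55, 12.4 and 13.3 CPM with vehicle and at 56.96, 57.3, 69.2 and 85.3 with TCDD. At 72 h it was at 10.8, 14.9, 21.1 and 29.3 with vehicle and at 128.1, 154, 239 and 247 with TCDD, and at 120 h at 3.70, 4.21, 16.8 and 17.4 against 61.6, 72.6, 74.3 and 155. Every TCDD library lay above every vehicle library at the 3 time points. The log2 fold changes were 2.69 ± 0.30 (SE), 3.30 ± 0.34 and 3.09 ± 0.56, with adjusted p-values of 0.00339, 0.000438 and 0.0444 by edgeR's test. In these comparisons 0.404%, 1.13% and 0.633% of all genes were called. The call at 48 and 72 h held when each of the 8 libraries was left out in turn. That at 120 h was lost for 7 of 8 left-out libraries, with adjusted p-values between 0.0452 and 0.121 and log2 fold changes between 2.67 and 3.46. With the share of unmapped pairs as a covariate, the log2 fold change at 120 h was 1.53, with an adjusted p of 0.573, and the calls at 48 and 72 h were lost too, at 2.61 and 2.94 with adjusted p-values of 1.00 and 0.0634. The unmapped share ran from 2.88% to 3.74% of pairs with TCDD and from 4.57% to 6.87% with vehicle at 48 h. At 72 h it ran from 2.43% to 3.16% against 3.07% to 7.74%, and at 120 h from 2.20% to 2.48% against 4.06% to 6.68%. It did not overlap between treatments at 48 and 120 h, so it cannot be told apart from treatment there. The call at 48 h was also lost in one fit of the 72 libraries of the label, at an adjusted p of 0.0601, and that at 120 h when low counts were left in, at 0.283.

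At 96 h in PkmΔDRE libraries the value turned on 1 library. Vehicle gave 36.1, 38.9, 50.3 and 843 CPM and TCDD 210, 213, 254 and 368 CPM. The library at 843 was replicate 4, set apart above because it was most like 4 h. With it, Arg1 had a log2 fold change of -0.05 ± 1.04 (SE) and an adjusted p of 0.992 by edgeR's test. Without it the log2 fold change was 2.60 ± 0.23 with an adjusted p of 0.000206, an alternative added after the data were seen.

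In WT libraries at 96 h, Arg1 was at 14.2, 29.1, 59.4 and 117.8 CPM with vehicle and at 189, 229, 247 and 273 with TCDD. The groups did not overlap, and the log2 fold change of 2.16 ± 0.57 (SE) had an adjusted p of 0.0243 by edgeR's test, in a comparison where 15.1% of all genes were called. The vehicle library at 117.8 CPM was replicate 3, in which Cyp1a1 was at 1717 CPM. In replicate 1 of TCDD 11.4% of pairs were unmapped, against 3.91% to 6.61% in the other TCDD libraries. Of its counts by strand 63.3% fell on the first strand, against 50.4% to 51.5% in those libraries. Without the libraries set apart the change was 2.84 with an adjusted p of 0.00253, while the call was lost for 4 of 8 left-out libraries, at adjusted p-values up to 0.0796. These 4 were replicates 1 and 4 of vehicle and replicates 1 and 3 of TCDD. It was also lost in 5 of 11 other settings, with adjusted p-values up to 0.0970 and log2 fold changes no lower than 2.07.

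At 120 h in WT libraries, vehicle gave 2.92, 8.10, 22.2 and 38.1 CPM and TCDD 55.8, 116.2, 117.8 and 130, without overlap and at 2.55 ± 0.72 (SE), with an adjusted p of 0.136 by edgeR's test. At 72 h vehicle gave 5.73, 8.40, 10.2 and 22.5 CPM and TCDD 19.3, 96.4, 140 and 182. The TCDD library at 19.3 was replicate 4, in which Cyp1a1 was at 29.2 CPM. The log2 fold change was 3.24 ± 0.65 with an adjusted p of 1.00 in the edgeR fit of all 8 libraries, and 3.58 with an adjusted p of 0.0275 without that library. At 48 h vehicle gave 11.2, 15.4, 29.7 and 232 CPM and TCDD 37.6, 134.8, 145 and 233. The vehicle library at 232 was replicate 1, in which Cyp1a1 was at 3285 CPM. Without it the log2 fold change rose from 0.99 to 2.92 and its adjusted p was 0.395. In the WT libraries set apart at 48, 72 and 96 h Arg1 was thus nearer on a log scale to the treatment that their Cyp1a1 matched, and whether labels were exchanged was not tested. Of 11 other settings, 2 gave a call at 24 h, 4 at 72 h and 3 at 120 h in WT libraries.

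Every TCDD library lay above every vehicle library for Arg1 in 8 of 18 comparisons, against at most 1 for each of the other 8 genes. The 8 were WT at 24, 96 and 120 h and PkmΔDRE at 8, 12, 48, 72 and 120 h. Of all genes with a mean of at least 1 CPM, 3.57%, 14.3% and 5.83% were separated in this way in the WT comparisons and 1.37%, 1.91%, 3.27%, 4.01% and 3.23% in the PkmΔDRE comparisons. In the other direction, all TCDD libraries lay below all vehicle libraries in 1 comparison each for Cps1, Ass1, Asl, Nags, Glul and Gls2. For Arg1 there were 0. The comparison for Cps1 was PkmΔDRE at 12 h, with 1689 to 2259 CPM with TCDD and 2880 to 3051 with vehicle. It was not called, and 2.19% of all genes with a mean of at least 1 CPM lay below in this way there. Arg1 is also a gene of activated macrophages. The summed level of 6 macrophage markers ran from 48.0 to 60.9 CPM with TCDD and from 61.7 to 84.7 with vehicle in WT libraries at 96 h, and from 30.1 to 45.6 against 37.0 to 59.2 in PkmΔDRE libraries at 72 h. At 48 h it ran from 56.5 to 88.9 against 37.8 to 127.5 and at 120 h from 42.3 to 69.7 against 52.1 to 201 in PkmΔDRE libraries, and at most 2 of the 6 markers were under 1 CPM throughout a group. Single markers went either way, such as Cd68 at 53.6 ± 13.9 CPM (SD, n = 4) with TCDD and 47.7 ± 23.1 with vehicle in PkmΔDRE libraries at 48 h, and Lyz2 at 8.62 ± 5.35 against 15.8 ± 10.2 in the same libraries. The part of macrophages in the Arg1 difference was not tested. The summed level of the hepatocyte markers ran from 14053 to 16310 CPM with TCDD and from 7928 to 14914 with vehicle in WT libraries at 96 h. In PkmΔDRE libraries it ran from 14037 to 18977 against 14211 to 23174 at 48 h and from 12540 to 27203 against 9935 to 21883 at 72 h. At 120 h it ran from 8982 to 16019 against 8187 to 11016.5 in PkmΔDRE libraries. Its part in the Arg1 difference was not tested.

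**Figure D4:**
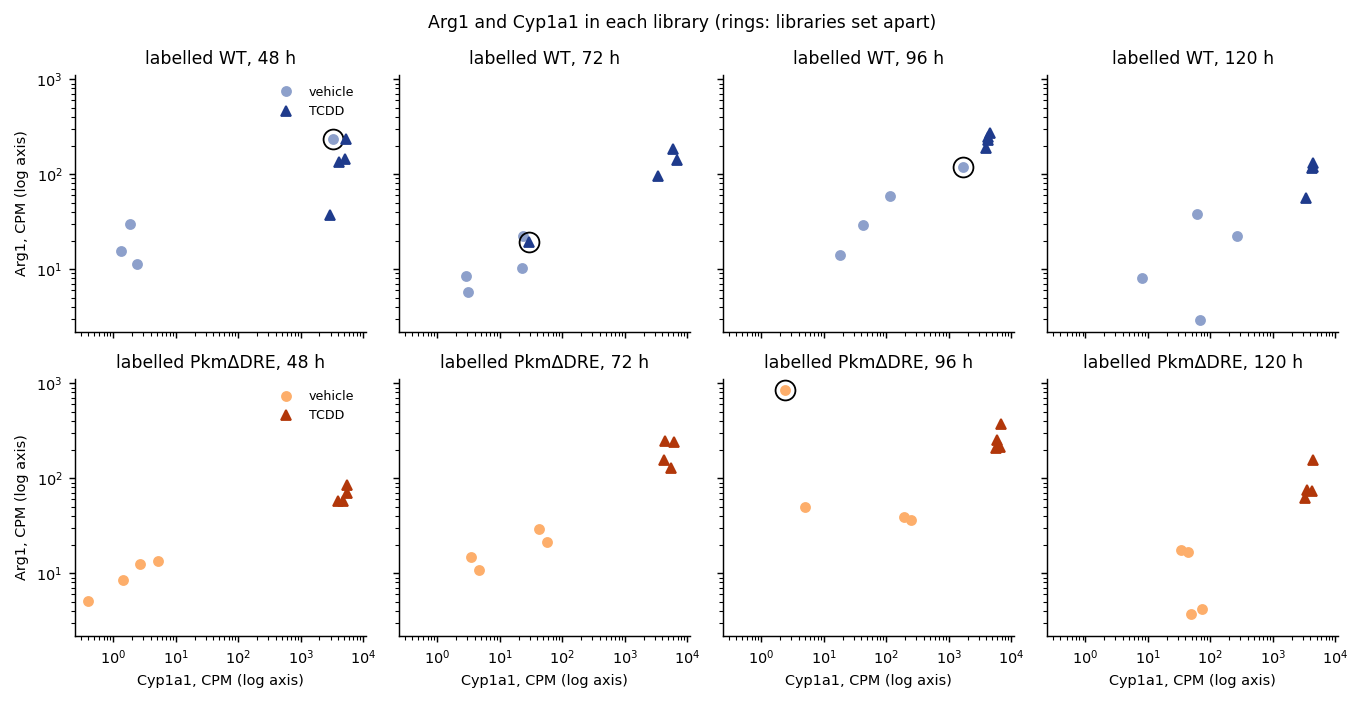
Arg1 against Cyp1a1 in CPM, both on log axes, in each library from 48 to 120 h, with circles for vehicle, triangles for TCDD and rings around the libraries set apart. TCDD libraries sit at high Cyp1a1 and above the vehicle libraries in Arg1, and the ringed WT libraries at 48, 72 and 96 h lie on the side that their Cyp1a1 level shows, while the ringed PkmΔDRE library at 96 h has 843 CPM of Arg1 at low Cyp1a1.

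At 8 h in WT libraries 4 other members were called, in a comparison where 37.4% of all genes were. Cps1 was at 1665, 1666, 1687 and 1752 CPM with vehicle and at 2196, 2638, 2950 and 3030 with TCDD, a log2 fold change of 0.64 ± 0.14 (SE) with an adjusted p of 0.00396 by edgeR's test. Otc was at 85.3, 88.5, 93.99 and 107.98 CPM with vehicle and at 156, 158, 176 and 219 with TCDD, at 0.88 ± 0.14 and an adjusted p of 0.00137. Cps1 and Otc were thus higher in every TCDD library. Of all genes with a mean of at least 1 CPM, 24.1% were higher in this way and 19.3% were lower in every TCDD library. Nags was at 45.6, 47.2, 49.4 and 50.7 CPM with vehicle and at 21.6, 31.5, 32.6 and 32.8 with TCDD, lower in every TCDD library at -0.74 ± 0.17 and an adjusted p of 0.00419. Asl was at 449, 457, 711 and 783 CPM with vehicle and at 334, 336, 361 and 473 with TCDD, at -0.71 ± 0.21 and an adjusted p of 0.0144, with 1 TCDD library inside the vehicle range. The median log2 fold change of the tested members was -0.45, against 0.00 over all genes.

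The genes that were higher and those that were lower differed in base composition, and the groups differed in pairs on no gene. Over their exons Otc and Cps1, which were higher, hold 41.1% and 46.6% G and C, and Asl and Nags, which were lower, 55.5% and 59.7%. Pairs on no gene made up 7.21% to 15.6% of pairs in the 4 TCDD libraries and 3.94% to 4.84% in the vehicle libraries. Once each library's trend with GC content was removed, all 4 calls were lost, with log2 fold changes of 0.18 for Cps1, -0.06 for Otc, -0.26 for Asl and -0.24 for Nags and adjusted p-values between 0.247 and 0.802 in edgeR's test. With the off-gene share added to the fit, the call of Asl was lost, at -0.63 and an adjusted p of 0.132, and those of Cps1, Otc and Nags held. What set these differences was not tested. Glul, at -0.53 ± 0.16 and an adjusted p of 0.0174, stayed under the fold of 1.5 in the comparison as fitted and was at -0.63 with an adjusted p of 0.0145 after the same correction. In PkmΔDRE libraries at 8 h the values were -0.25 ± 0.39 for Cps1, 0.07 ± 0.36 for Otc, 0.02 ± 0.26 for Nags and -0.08 ± 0.21 for Asl.

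Glul, the glutamine synthetase, was lower with TCDD in WT libraries at 24 h. Vehicle gave 79.4, 95.7, 95.9 and 97.4 CPM and TCDD 39.2, 40.7, 48.6 and 52.7 CPM. The groups did not overlap, and the log2 fold change of -0.94 ± 0.13 (SE) had an adjusted p of 0.0151 by edgeR's test, in a comparison where 0.373% of all genes were called. Of all genes with a mean of at least 1 CPM, 6.89% lay lower in every TCDD library there. The call was lost for 4 of 8 left-out libraries, replicate 1 of vehicle and replicates 1, 2 and 4 of TCDD, at adjusted p-values up to 0.0718, and in 2 of 11 other settings, at adjusted p-values up to 0.209. In PkmΔDRE libraries at 24 h Glul was at 35.1, 57.1, 59.2 and 90.9 CPM with vehicle and 20.4, 43.7, 61.1 and 77.9 with TCDD, overlapping at -0.36 ± 0.42. From 24 to 120 h the fitted change of Glul with TCDD was below 0 at every hour under both labels, between -0.26 and -1.33, the last of these at 96 h in PkmΔDRE with the library set apart, but among these 10 fits the one called was that in WT at 24 h.

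Among the 18 comparisons, 6 of 73 member tests were called in WT libraries, with 3 higher and 3 lower, and 3 of 75 in PkmΔDRE libraries, all 3 of them Arg1. Ass1, whose promoter stretch is shown above, and Gls2 were called in none. At 24 h in WT libraries Ass1 was at 673, 705, 747 and 760 CPM with vehicle and 590, 680, 687 and 764 with TCDD, overlapping at that hour. At 4 h in WT libraries both lay lower in every TCDD library. Ass1 ran from 2514 to 4773 CPM with TCDD and from 5109 to 6129 with vehicle, and Gls2 from 317 to 440 against 515 to 566. Of all genes with a mean of at least 1 CPM, 5.1% lay lower in this way there. Otc was not called after 8 h, though at 96 h in WT libraries it was at 0.80 ± 0.34 with an adjusted p of 0.094, and at 1.08 with an adjusted p of 0.0434 without the libraries set apart. Asl at 96 h in WT libraries was at -0.37 ± 0.11 with an adjusted p of 0.0261, under the fold of 1.5.

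**Figure D5:**
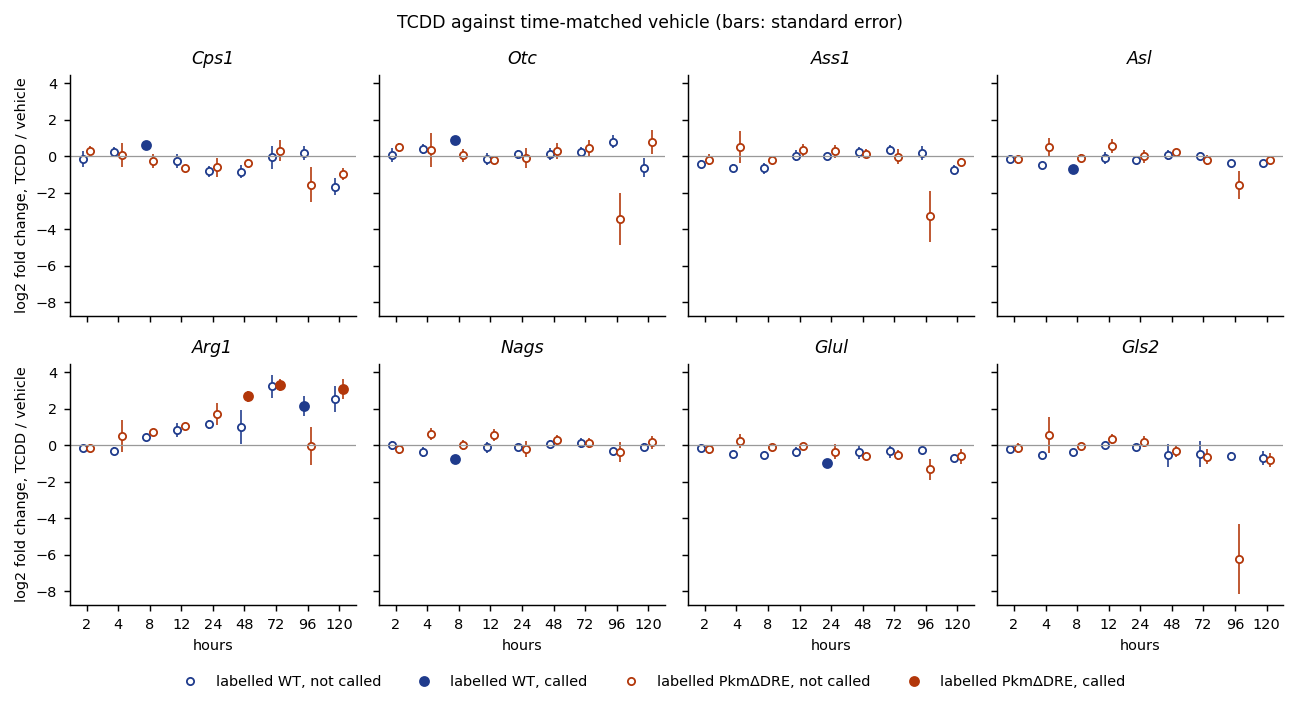
Log2 fold change of TCDD over vehicle at each hour for the 8 genes with enough counts, with points for each label, bars for the standard error and filled points for called changes. Arg1 lies above 0 from 8 h on under both labels except in PkmΔDRE at 96 h, the other genes stay near 0 at most hours, and the wide bars at 4 and 96 h in PkmΔDRE belong to groups that hold a library set apart.

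An interaction term over the 16 libraries of each hour tested whether the response to TCDD differed by label. In edgeR's test 0 of 78 member tests passed, with a lowest adjusted p of 0.270, 6 at an unadjusted p under 0.05 and 0 by DESeq2. Among all genes tested the interaction called 1 gene at 48 h, 1 at 72 h and 0 at each other hour, so the 0 is not particular to the members. For Arg1 the difference, PkmΔDRE minus WT on the log2 scale, was 0.06 with a 95% interval from -1.38 to 1.49 at 72 h and 0.55 with an interval from -1.21 to 2.30 at 120 h. At 48 h it was 1.73, from -0.37 to 3.83. Differences of 2-fold in either direction thus lie within the intervals at 72 and 120 h. Between the labels in vehicle 1 of 74 member tests was called, Glul at 12 h, in a comparison where 3.68% of all genes were called. It was at 90.6, 92.96, 114.01 and 126.3 CPM in WT and 53.8, 59.9, 64.2 and 66.8 in PkmΔDRE libraries, without overlap, at a log2 difference of -0.76 ± 0.16 (SE) and an adjusted p of 0.0322 by edgeR's test. The call was lost for 5 of 8 left-out libraries, replicates 2 and 4 of WT and replicates 1, 3 and 4 of PkmΔDRE, at adjusted p-values up to 0.135.

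Of the 28 further genes of the pathway, 25 were tested in WT libraries at 8 h, where 2 rose and 6 fell with TCDD. With 37.4% of all genes called there, this count lies near the background, as does that of 3 among 25 at 96 h, where 15.1% were called. Those that rose were the amino acid carrier Slc38a2 (log2 fold change 1.27 ± 0.26, SE) and Nr3c1 (1.24 ± 0.22). Those that fell were Cebpb (-1.01 ± 0.19), Gpt (-0.96 ± 0.18), Agmat (-0.94 ± 0.20), Oat (-0.70 ± 0.24), Sirt5 (-0.67 ± 0.24) and Gcgr (-0.65 ± 0.17). The 3 at 96 h were Nr3c1 (0.77 ± 0.23), Gcgr (0.68 ± 0.21) and the arginine carrier Slc7a2 (0.66 ± 0.21), all higher. In the other 16 comparisons 0 of 402 tests passed edgeR's test, with 40 at an unadjusted p under 0.05.

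The genes whose mean log2 level over the 36 groups followed each member most closely, among 11502 genes, describe the same course. The highest Pearson r was 0.996 for Ass1 with Sardh, 0.995 for Otc with Ugt2a3, 0.991 for Asl with Gcdh, 0.990 for Cps1 with the acute-phase gene Crp and 0.990 for Gls2 with Mrap. It was lower for Arg1 with Gckr at 0.979, for Nags with Pcyt2 and for Glul with Mccc2, both at 0.971. Among the members Gls2 and Ass1 were most alike at 0.984, and Glul and Nags least alike at 0.411 if Arg2 is left aside. The groups share libraries' depth and the fall over time, so these values describe the course and carry no test.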

How the data were processed

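Read pairs were trimmed with Trimmomatic 0.39 and aligned with STAR 2.7 to GRCm39 by the authors, who deposited one file of raw counts per library (uniquely mapped pairs per gene, without normalization). The unstranded count column was used. Lines that name no gene (unmapped, multimapped and ambiguous pairs and pairs on no gene), 16.8% to 48.0% of pairs, entered neither library sizes nor tests. Depth limits low values: the lowest count was 3 for Otc and 0 for Arg2. Symbols, exon lengths and GC content came from the GENCODE M21 annotation of GRCm38, which named 52083 of 55359 genes. Promoters came from RefSeq (GRCm38.p6), for 4 of the 9 members, and Cps1, Asl, Arg1, Arg2 and Gls2 were not matched.

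Tests were run in edgeR 4.0.16 under R 4.3.3 with TMM scaling, filterByExpr (count minimum 10, total minimum 15) and the robust quasi-likelihood fit, with Benjamini-Hochberg adjustment over all genes tested. A gene was called at an adjusted p under 0.05 and a fold of at least 1.5. TCDD was compared with vehicle in the 8 libraries of a label and hour, time within the 36 libraries of a label and treatment, and labels in vehicle or as an interaction in the libraries of an hour. Printed CPM use TMM sizes over all libraries of the series, and log levels for likeness used a pseudocount of 1. Fits were checked on simulated counts. Alternatives were RLE scaling, no filter, DESeq2 1.42.0, other sets of libraries in the fit, 1 surrogate variable (sva 3.50.0), covariates, removal of GC trends, no fold threshold and each library left out. Total counts in place of TMM and leaving out 6 libraries were added after the data were seen.

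The members, gene lists and alternatives were chosen with earlier results of these data known. All 9 members are named throughout. Other genes of the pathway are named where called in the same direction under both labels over time or in any TCDD comparison, and the 3 likest genes were ranked, of which the first is given. The labels carry no replicate number or isolation batch. Beyond the 28 pathway genes counted, 1 further gene is not reported here.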

Additional observations from a re-analysis of the deposited data

Results flagged for a closer look

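Of 288 sets of 4 libraries, one for each of 8 members and 36 groups, 28 held a library whose distance from the nearest other exceeded, as a share of the range of the set, the 95% critical value of Dixon's test, where chance gives about 1 in 20. They came from 17 libraries.

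Several of these values fell in the same libraries. In PkmΔDRE vehicle replicate 4 at 4 h, Otc was at 1.41 CPM, Ass1 at 127.5, Asl at 126.7, Arg1 at 15.3 and Gls2 at 4.56, each the lowest of its set. In PkmΔDRE vehicle replicate 4 at 96 h, Otc at 155, Ass1 at 7246 and Arg1 at 843 CPM were the highest. Both libraries went against their hour over all genes. In WT TCDD replicate 3 at 120 h, Ass1 at 100.5 and Glul at 138.6 CPM were the highest and Arg1 at 55.8 the lowest, and in WT TCDD replicate 1 at 96 h Ass1 at 75.01 and Glul at 85.8 were the lowest. In replicate 3 at 72 h of the WT label, Glul was lowest with vehicle at 53.98 and with TCDD at 36.7, while Gls2 was highest with vehicle at 42.1 CPM. In WT vehicle replicate 3 at 24 h, Asl at 134.2 and Nags at 26.3 CPM were the lowest.

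The others stood alone. Cps1 was lowest at 52.9 CPM in PkmΔDRE vehicle replicate 4 at 72 h, where the nearest other library had 141.1. Otc was highest at 549 in WT vehicle replicate 3 at 2 h and at 9.81 in PkmΔDRE TCDD replicate 3 at 72 h, and lowest at 54.6 in WT vehicle replicate 4 at 12 h. Ass1 was lowest at 5021 in WT vehicle replicate 1 at 2 h, and Asl stood apart at 790 in WT TCDD replicate 2 at 4 h. Nags stood apart at 21.6 in WT TCDD replicate 3 at 8 h, at 27.03 in PkmΔDRE vehicle replicate 2 at 12 h and at 13.3 in PkmΔDRE vehicle replicate 2 at 48 h, and Glul at 79.4 in WT vehicle replicate 2 at 24 h. No member had every TCDD library on opposite sides of vehicle under the 2 labels at the same hour.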

How the results depend on the processing

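The fall of 8 of the 9 members from 2 to 120 h kept its direction and its call in all 4 combinations of label and treatment, under every alternative run and each left-out library, and the order per length at 2 h kept 9 places on total counts and 7 with the longest transcript as the length. Members called with TCDD over the 9 hours numbered 6 in WT libraries and became 12 with DESeq2, 3 with GC trends removed, 3 with 1 surrogate variable and 5 to 8 with a library left out. In PkmΔDRE libraries 3 became 5 with DESeq2, 5 adjusting for the share of pairs on no gene and 5 in one fit of 72 libraries. They became 8 with the surrogate variable and 2 to 4 with a library left out. The interaction gave 0 and became 3 in one fit of all libraries (Otc, Ass1 and Gls2 at 96 h, where PkmΔDRE vehicle replicate 4 stands apart) and 0 with any library left out. Label differences in vehicle gave 1 and became 3 without a filter, 2 with DESeq2 and 0 to 3 with a library left out. Arg1 at 96 h in PkmΔDRE libraries turned from -0.05 to 0.11 without a filter, 0.66 on total counts, 4.21 with the unmapped share as a covariate, 2.60 without the libraries set apart, 0.026 in one fit of 72 libraries and 0.035 with the surrogate variable, and ran from -0.41 to 2.60 with a library left out. At 8 h in WT libraries Cps1 turned to -0.26 with the surrogate variable and Otc to -0.058 with GC trends removed. For the other turns and lost calls the cause was not tested.

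No paired analysis was possible because the labels give no replicate numbers shared between groups. Depth limits Arg2 throughout and Otc and Gls2 at 96 and 120 h.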
